A study of Mus musculus with 20 samples.

Results

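Olfactory sensory neurons marked as recently active were compared between mice stimulated with an artificial cigarette smoke odor and mice stimulated with vehicle. The comparison used the 10 GFP+ samples of a series of 20, chosen by their titles, with 5 odor pools and 5 vehicle pools that carry the numbers 1 to 5 in each group. All the mice, controls included, were S100a5-tauGFP reporter animals of both sexes aged 7 to 12 weeks. The strain and the number of reporter alleles are not named in the labels. The mice stayed for 40 h in chambers flushed with clean air at 3.1 L/min, and from 26 h they received 10 s of filtered air (vehicle) or of odorant every 20 min. The olfactory mucosa of 3 mice made up 1 pool, which was dissociated and sorted by GFP fluorescence, so each value is an average over 3 animals and the 10 pools held 30 mice. The design text of the series names bourgeonal as the odorant, whereas the title of the series and the labels of each odor sample name the smoke odor. The sample labels were followed.

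As a rule, a mature olfactory sensory neuron expresses 1 odorant receptor gene. Odorant binding acts through a G protein and adenylyl cyclase to open a cyclic nucleotide-gated channel, and the calcium that enters also alters transcription. S100a5 encodes a calcium-binding protein whose transcription in these neurons depends on activity, which is why its reporter is used to collect neurons that were recently stimulated. The question of the comparison was which receptor mRNAs, and which other mRNAs, were more or less abundant in the GFP+ cells after the odor.

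The RefSeq windows from 250 bases before to 50 bases after the annotated start are shown for S100a5, whose promoter drives the reporter, and for Olfr1257 and Olfr314, which are among the 3 receptors with the smallest p in the comparison. Positions are in GRCm38.p6: S100a5 on the plus strand at chr3:90608272-90608571, Olfr1257 on the plus strand at chr2:89880578-89880877 and Olfr314 on the plus strand at chr11:58785889-58786188. Capitals mark matches to TATAAA on either strand.

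S100a5: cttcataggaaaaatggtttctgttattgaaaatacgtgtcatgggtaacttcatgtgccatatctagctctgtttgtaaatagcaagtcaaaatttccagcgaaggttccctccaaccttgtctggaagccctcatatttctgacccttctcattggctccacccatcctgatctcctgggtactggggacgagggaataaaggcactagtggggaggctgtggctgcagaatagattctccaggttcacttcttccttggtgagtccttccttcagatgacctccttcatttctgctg

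Olfr1257: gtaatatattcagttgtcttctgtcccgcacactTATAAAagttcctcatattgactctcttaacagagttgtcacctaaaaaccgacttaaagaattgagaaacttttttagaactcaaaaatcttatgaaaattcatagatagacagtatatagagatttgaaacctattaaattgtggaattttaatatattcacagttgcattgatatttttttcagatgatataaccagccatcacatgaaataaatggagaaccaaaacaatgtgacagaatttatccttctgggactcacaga

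Olfr314: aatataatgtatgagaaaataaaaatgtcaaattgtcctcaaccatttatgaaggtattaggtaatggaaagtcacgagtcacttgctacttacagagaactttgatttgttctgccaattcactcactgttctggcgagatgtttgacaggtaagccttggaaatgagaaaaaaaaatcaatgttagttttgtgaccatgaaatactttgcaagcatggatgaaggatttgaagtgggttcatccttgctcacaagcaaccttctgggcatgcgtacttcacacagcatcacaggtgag

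The windows were searched on both strands for TATAAA, for CCCNNGGG as an Ebf-like motif, and for TAATTA and TAATGA as homeodomain-like motifs. Matches to different motifs could share bases, which did not occur in these 3 windows. The Olfr1257 window held 1 TATAAA, at position -216 from the annotated start, and the S100a5 and Olfr314 windows held no match to any of the 4. From its annotated start to its end the Olfr1257 window opens with the start codon atg and holds no stop codon in that frame. This start may therefore be that of the coding sequence, and -216 need not be a distance from the start of transcription. TATAAA was present in 13.6% of 32851 windows of all genes and in 41.2% of 959 receptor windows. Of all windows 13.7% held CCCNNGGG, 5.29% TAATTA and 9.78% TAATGA, and of receptor windows 3.02%, 18.5% and 29% did. How many receptor windows are placed on a start codon was not tested, so the shares of receptor windows and of all windows may not describe like regions. A match is a run of letters and not a known binding site. Windows were found for 6 of the 9 genes looked up, and Olfr220, Olfr1281 and Olfr1183 had none.

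Values are log2 signals, so a difference of 1 is 2-fold. The 8 GFP+ arrays of replicates 1 to 4 had median gene signals of 6.06 to 6.26, and the 2 arrays of replicate 5 had 7.03 and 7.07. The arrays of replicate 5 also had lower maxima, 18.49 and 18.65 against 19.32 to 19.86, and both conditions held 1 of them. Vehicle replicate 2 had the lowest mean correlation with its group, 0.946. Each odor pool was therefore set against the vehicle pool of the same number, as a block in a linear model (limma), and p-values were adjusted over all 22206 gene probe sets by the Benjamini-Hochberg method. The number of arrays limits the precision. A gene is called near background where both group means lay at or below 6.34, the highest median of the background control probe sets on a GFP+ array. By this measure 49.5% of all gene probe sets were near background.

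The sorted cells carried the signal of the reporter's gene. S100a5 was at 16.25 to 17.40 in GFP+ cells and at 14.15 to 16.07 in GFP- cells, and it was higher in the GFP+ fraction of all 10 pools. Among GFP+ cells its signals in odor pools 1 to 5 were 16.92, 16.66, 16.71, 17.40 and 16.88. In vehicle pools 1 to 5 they were 16.36, 17.08, 16.64, 16.25 and 16.66. The groups overlapped, the highest vehicle pool being number 2 and the highest odor pool number 4, and odor was higher in 4 of 5 pairs. The mean difference was 0.31 with an SE of 0.23 and a 95% confidence interval from -0.19 to 0.81 (adjusted p = 0.993 by limma). An exact two-sided permutation of the 10 samples gave p = 0.1508, where 0.00794 is the smallest it allows. An exact two-sided sign flip of the 5 pair differences gave p = 0.3125 and can go no lower than 0.0625. Leaving out both pools of number 4 brought the difference to 0.11, and leaving out number 2 brought it to 0.50. Quantile normalization gave 0.17. Omp, which marks mature sensory neurons, had a signal of 19.32 ± 0.58 in odor and 19.17 ± 0.49 in vehicle pools (SD, n = 5 each).

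Markers of other cells were mostly low in the GFP+ samples of both groups. Of 18 neutrophil genes 15 were near background, and their mean signal was 5.31 to 5.66 in odor and 5.16 to 5.85 in vehicle pools, where GFP- samples had 11.58 to 12.97. Of 16 macrophage and monocyte genes 13 were near background, with mean signals of 5.11 to 5.68 in odor pools, 5.26 to 6.07 in vehicle pools and 8.14 to 9.87 in GFP- samples. All 8 horizontal basal cell genes, 11 of 13 microvillar genes and 10 of 12 endothelial and stromal genes were near background as well. Sustentacular cells, the supporting cells of the epithelium, left signal above background. Cyp2g1, a cytochrome P450 of these cells, was at 13.67 in odor and 13.73 in vehicle pools. Of 13 sustentacular genes 5 were near background. The mean signal of the 13 was 6.34 to 8.37 in odor pools, 7.04 to 7.94 in vehicle pools and 7.72 to 9.52 in GFP- samples. Genes of respiratory ciliated cells were not low, with 2 of 8 near background. Their mean signal was 8.30 to 9.43 in odor pools, 8.13 to 9.62 in vehicle pools and 7.65 to 9.15 in GFP- samples. Genes of immature neurons varied in signal, and 4 of 17 were near background. In odor pools Dcx and Tubb3 were at 13.4 and 13.5, Stmn1 at 10.4, Gap43 at 8.6 and Gng8, near background, at 5.5.

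No probe set passed an adjusted p of 0.05 in the comparison of odor with vehicle in GFP+ cells (0 of 22206, 0% by limma). An unadjusted p under 0.05 was reached by 820 probe sets (3.69%), 473 (2.13%) of them higher in odor pools and 347 (1.56%) lower. This is fewer than a threshold of 0.05 gives on average where nothing differs. In bulk samples such as these, fewer cells of a type and less RNA per cell cannot be told apart. The median difference over all probe sets was 0.03, and the median SE was 0.21. Without the replicate block the median SE was 0.36, no probe set passed by limma and 61 had an unadjusted p under 0.05. For 94.4% of probe sets the 95% confidence interval lay wholly within a 2-fold difference in either direction. For 76.7% of the receptors this was so, and the median SE of receptors was 0.238.

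**Figure D1:**
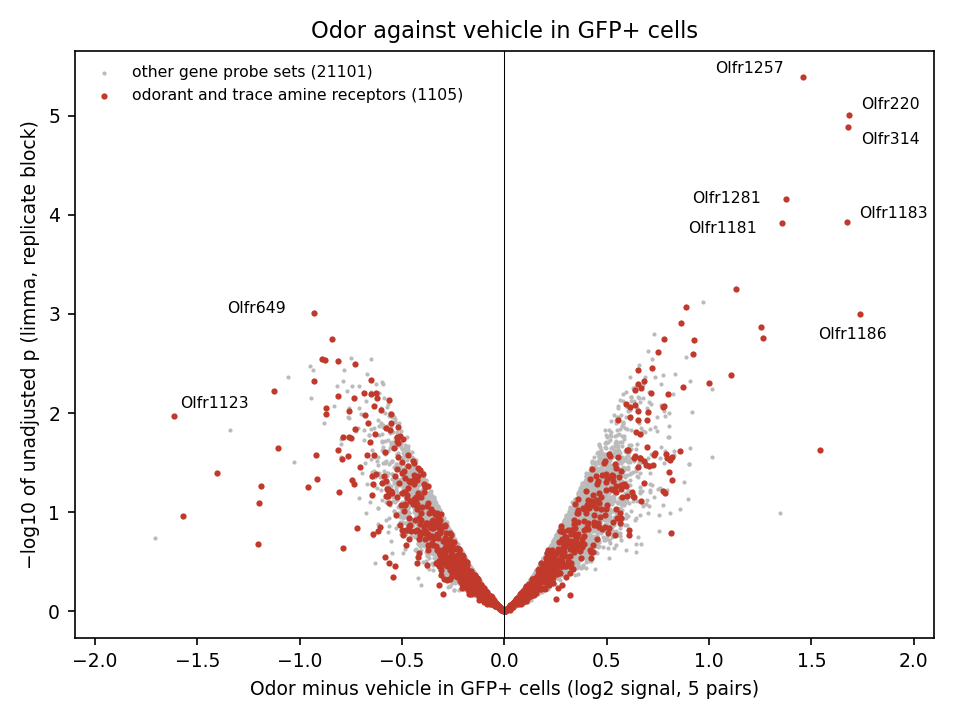
Log2 difference between odor and vehicle pools in GFP+ cells (x axis) against −log10 of the unadjusted limma p (y axis) for 22206 gene probe sets, with the 1105 odorant and trace amine receptors in red. Olfr1257, Olfr220 and Olfr314 are uppermost on the right, and 13 of the 16 points more than 2-fold higher are receptors.

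Differences between odor and vehicle pools were spread more widely among receptors than among other probe sets, in both directions. The 1105 receptors measured were 1091 odorant receptors, among them 10 named as pseudogenes, and 14 trace amine-associated receptors. At an unadjusted p under 0.05, 82 receptors (7.42%) were higher and 76 (6.88%) lower in odor pools, where 2.13% and 1.56% of all probe sets were. The SD of the differences was 0.397 among receptors and 0.223 among other probe sets, and the median was -0.05 among receptors. Of the 16 probe sets (0.0721%) more than 2-fold higher in odor pools 13 were receptors, and of the 12 (0.054%) more than 2-fold lower 8 were. These shares depended on the pools used. Receptors were 23 of 51 probe sets more than 2-fold higher without number 1, 9 of 9 without 2, 19 of 33 without 3, 17 of 29 without 4 and 14 of 27 without 5. Of those more than 2-fold lower they were 8 of 22, 9 of 14, 14 of 24, 21 of 26 and 12 of 18. Of the 13 receptors higher in the fit on all pairs 12 were higher in 5 of 5 pairs, and of the 8 lower receptors 1 was lower in 5 of 5. The choice of these receptors by the mean of the same 5 pairs favours agreement in sign. Over all receptors, 47 (4.25%) were higher in every pair and 46 (4.16%) were lower in every pair, against 3.15% and 2.31% of all probe sets. None of these receptors passed the adjusted threshold by limma with the replicate number as a block. Of the 1105 receptors 267 (24.2%) were near background, against 50.9% of other probe sets, so the 2 sets also differed in signal level.

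Olfr1257 had the smallest p of all probe sets. Its signals in odor pools 1 to 5 were 13.04, 13.76, 13.75, 13.81 and 13.85. In vehicle pools 1 to 5 they were 11.98, 12.33, 12.14, 12.14 and 12.32. The groups did not overlap, odor pool 1 being the lowest of its group. The difference was 1.46 with an SE of 0.18 and a 95% confidence interval from 1.06 to 1.86, or 2.75-fold, with an adjusted p of 0.091 by limma. It stayed between 1.41 and 1.56 when any 1 number was left out, and the adjusted p by limma ranged from 0.00607 to 1.0 over the alternative settings. Every odor array lay above every vehicle array for 13 probe sets (0.0585%) and below for 10 (0.045%). Of the 19 among these with a gene symbol, Olfr1257 and Ebf4, a transcription factor of the olfactory neuron lineage, were the 2 not near background, with Ebf4 higher by 0.33.

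Olfr220 and Olfr314 followed. Olfr220 was at 11.72, 11.80, 12.23, 12.91 and 13.61 in odor pools 1 to 5, and at 10.32, 9.96, 10.11, 10.66 and 12.81 in the vehicle pools. Vehicle pool 5 lay above 3 odor pools, and the other 4 vehicle pools lay below all 5. The difference within pairs was 1.68 (SE 0.23, 95% confidence interval 1.18 to 2.18, 3.21-fold), positive in 5 of 5 pairs, with an adjusted p of 0.0973 by limma. Olfr314 was at 9.75, 9.63, 8.32, 9.52 and 12.36 in odor pools 1 to 5 and at 8.80, 7.66, 7.11, 6.99 and 10.62 in vehicle pools. Here the groups overlapped, since number 5 was the highest of each group, and odor was higher in all 5 pairs. The difference was 1.68 (SE 0.24, 95% confidence interval 1.16 to 2.20, 3.20-fold, adjusted p = 0.0973 by limma). With array weights in the same fit, Olfr1257 and Olfr1281 passed with adjusted p-values of 0.0121 and 0.013 by limma, and Olfr220 and Olfr314 with 0.0191 each. With the replicate number as a random block Olfr1257 alone passed, at 0.00607.

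For Olfr1281 the signal was 13.84, 14.54, 14.07, 13.70 and 15.07 in odor pools 1 to 5, and 12.05, 14.18, 12.45, 11.93 and 13.73 in vehicle pools. Vehicle pool 2 stood above the other vehicle pools and within the range of odor pools, and odor was higher in each pair. The difference of 1.38 (SE 0.23, 95% confidence interval 0.87 to 1.88) had an adjusted p of 0.384 by limma. Without number 2 it was 1.63 with an adjusted p of 0.0194 by limma, and Olfr1257, at 1.47 with an adjusted p of 0.0438, also passed. These were the 2 probe sets that passed in any of the 5 fits that left out a number.

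**Figure D2:**
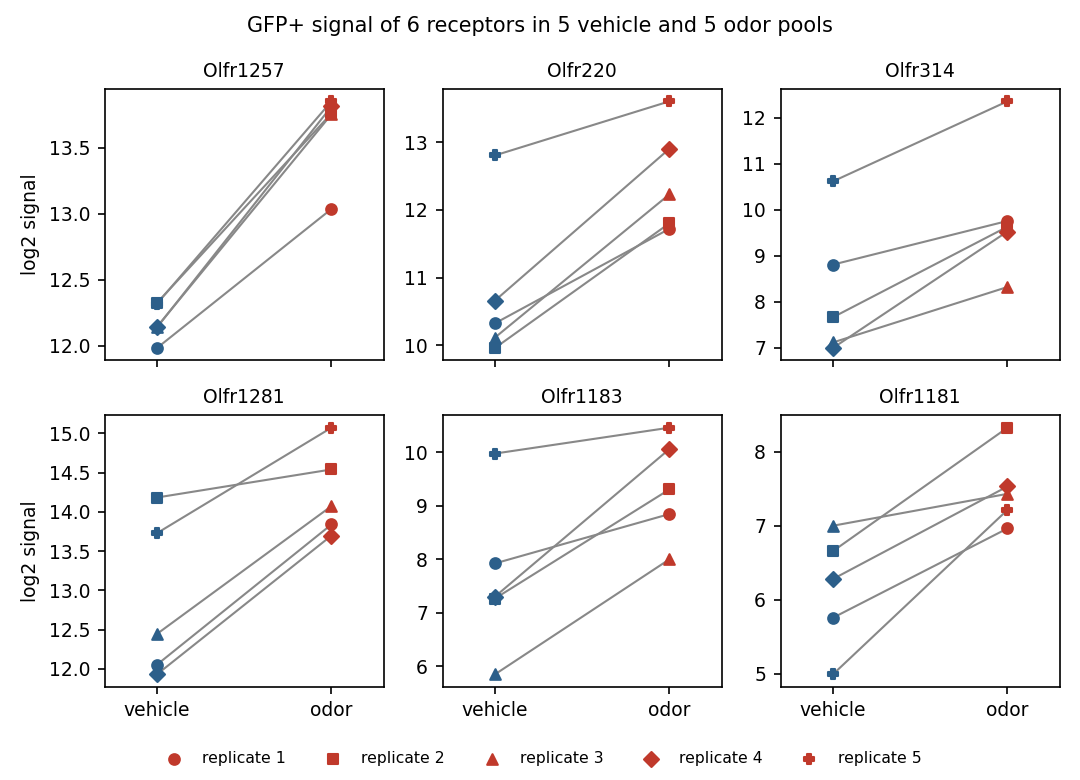
Log2 signal (y axis) of Olfr1257, Olfr220, Olfr314, Olfr1281, Olfr1183 and Olfr1181 in GFP+ cells of vehicle (blue) and odor pools (red), with a symbol for each replicate number and a line joining the pools of 1 number. Every line goes up from vehicle to odor, and Olfr1257 is the 1 of the 6 whose vehicle and odor points do not overlap.

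Olfr1183, Olfr1181 and Olfr1186 are near neighbours in the RefSeq order of receptor genes. Olfr1183 was at 8.84, 9.30, 8.0, 10.06 and 10.46 in odor pools and 7.92, 7.26, 5.84, 7.30 and 9.97 in vehicle pools, a difference of 1.67 (SE 0.30). Olfr1181 was at 6.96, 8.33, 7.43, 7.53 and 7.22 in odor pools and 5.76, 6.66, 7.00, 6.28 and 4.99 in vehicle pools, a difference of 1.36 (SE 0.24). Both had an adjusted p of 0.445 by limma, both were higher in 5 of 5 pairs, and the ranges of both overlapped between groups. Olfr1186 was at 6.45 to 8.73 in odor and 5.03 to 6.87 in vehicle pools, and differed by 1.74 (SE 0.40), the largest positive difference of all (adjusted p = 0.993 by limma). Along the order from Olfr1176 to Olfr1189, 11 of 14 receptors were measured. Of these 11, Olfr1182 had a negative difference (-0.31), and the other 10 ranged from 0.07 for Olfr1188 to 1.74 for Olfr1186. Olfr1179 lay between with 0.92 (SE 0.24), higher in 5 of 5 pairs, and Olfr1178 with 0.70 and Olfr1180 with 0.47 stood on either side of it. Of all 1091 odorant receptors 496 had a positive difference. The stretch was chosen around receptors with large positive differences, which favours positive values in it. Within it Olfr1178, Olfr1184 and Olfr1188 were near background. The probe sequences were not used here, so whether a probe set reads 1 of the neighbouring receptors or several was not tested.

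The other receptors more than 2-fold higher were Olfr1202, Olfr1388, Olfr1323, Olfr328, Olfr698 and Olfr1153, with differences from 1.00 for Olfr1153 to 1.54 for Olfr1202. Of these, Olfr1202 was the exception in its pairs. It was higher in 3 of 5, with odor pools from 6.71 to 12.10 and vehicle pools from 6.50 to 8.98. The other 5 were higher in 5 of 5 pairs. Olfr190, at 0.89 (SE 0.20), was just short of 2-fold and also higher in each pair. When each number was left out in turn, 7 of the 13 receptors stayed above 2-fold in all 5 fits, and all 13 stayed positive. The choice of the 13 by their difference over all 5 pairs favours both counts. The 7 were Olfr1257, Olfr220, Olfr314, Olfr1281, Olfr1183, Olfr1181 and Olfr1186.

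Among receptors lower in odor pools, Olfr649 had the smallest p. Its signals were 7.12, 6.96, 7.09, 6.75 and 8.23 in odor pools 1 to 5 and 8.79, 8.04, 7.74, 7.11 and 9.12 in vehicle pools. The groups overlapped, odor pool 5 being the highest of its group and vehicle pool 4 the lowest of its own, and odor was lower in 5 of 5 pairs. The difference was -0.93 (SE 0.21, 95% confidence interval -1.40 to -0.46, adjusted p = 0.993 by limma), so vehicle pools were 1.90-fold higher. Olfr828 was lower by 0.84 in odor pools with an SE of 0.21, at 8.93 to 12.61 against 10.07 to 13.53, and lower in each pair. Olfr859 (difference -0.88), Olfr97 (-0.81) and Olfr860 (-0.73) were lower in 5 of 5 pairs too, and Olfr339 (-0.89) in 4 of 5. Olfr860 and Olfr859 carry adjacent numbers.

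The largest negative differences among receptors were less steady across pairs. Olfr1123 differed by -1.61 (SE 0.53), with odor pools at 8.42, 7.89, 9.03, 3.94 and 6.77 and vehicle pools at 10.09, 9.33, 9.27, 8.77 and 6.67. Odor pool 4 lay far below the rest, and without number 4 the difference was -0.81. Olfr1250 was the 1 receptor more than 2-fold lower that was lower in every pair. It was at 8.04, 5.69, 7.34, 7.96 and 8.0 in odor pools and 8.76, 8.19, 9.47, 8.01 and 8.23 in vehicle pools, a difference of -1.13 (SE 0.34), and without number 2 it was -0.78. Of the 8 receptors more than 2-fold lower none stayed beyond 2-fold in all 5 fits that left out a number. The others were Olfr323, Olfr1045, Olfr1099, Olfr1247, Olfr1238 and Olfr1030, with differences from -1.57 to -1.11.

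Trace amine-associated receptors detect volatile amines and belong to a receptor family apart from the odorant receptors. None of the 14 passed the threshold, 8 differences were positive and the median was 0.05. Taar7a had the largest, 0.78 (SE 0.25), higher in 5 of 5 pairs, but it was near background with odor pools at 5.23 to 6.93 and vehicle pools at 4.48 to 6.48. Taar9 was at 11.85 ± 1.09 in odor and 11.38 ± 1.52 in vehicle pools (SD, n = 5 each), a difference of 0.47 (SE 0.26) that was positive in 4 of 5 pairs and was 0.19 without number 2. Taar4 differed by -0.11 and Taar7b by -0.08.

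The same pools gave GFP- samples, which show whether a receptor's signal differed between odor and vehicle pools outside the GFP+ cells. In GFP- cells no probe set passed the threshold (0 of 22206 by limma), and 190 (0.856%) had an unadjusted p under 0.05, fewer than chance gives on average. Olfr1257 was at 9.83, 8.73, 9.11, 10.35 and 11.49 in GFP- cells of odor pools and 9.29, 11.02, 9.76, 9.95 and 11.90 in those of vehicle pools, a difference of -0.48 with overlapping groups. The difference in GFP+ minus that in GFP- cells was 1.94 for Olfr1257 (95% confidence interval 0.88 to 3.01). It was 1.23 for Olfr220 (-0.22 to 2.68), 1.02 for Olfr314 (-0.22 to 2.26) and 1.58 for Olfr1281 (0.65 to 2.51). Each had an adjusted p of 1 by limma. Over all probe sets none passed this test of the difference between fractions, and 186 (0.838%) had an unadjusted p under 0.05, again fewer than chance gives. Of the 13 receptors more than 2-fold higher in GFP+ cells, 8 had a positive difference in GFP- cells and 5 a negative one. For all 13 the difference was larger in GFP+ cells, which the choice of these receptors by their GFP+ difference favours. In 5 of them the interval of the difference between fractions lay above 0. The same choice favours this count, and the share over all receptors was not counted.

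The receptors also differed in how vehicle pools divided between the fractions. The share of all receptors with a higher mean in GFP+ than in GFP- cells of these pools was not counted. Of the 13, 7 had a higher mean in GFP+ cells. Olfr1281 was higher there by 2.13 and Olfr1257 by 1.80, whereas Olfr220 was about level (-0.15) and Olfr328 was lower by 3.57 in GFP+ cells. Receptors lower in odor pools lay on both sides as well. In vehicle pools GFP+ minus GFP- was 4.14 for Olfr860 and 2.33 for Olfr649. It was 0.07 for Olfr859, -2.73 for Olfr1250 and -3.08 for Olfr1123. The vehicle signals in GFP+ cells also entered the differences by which all these receptors were chosen.

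**Figure D3:**
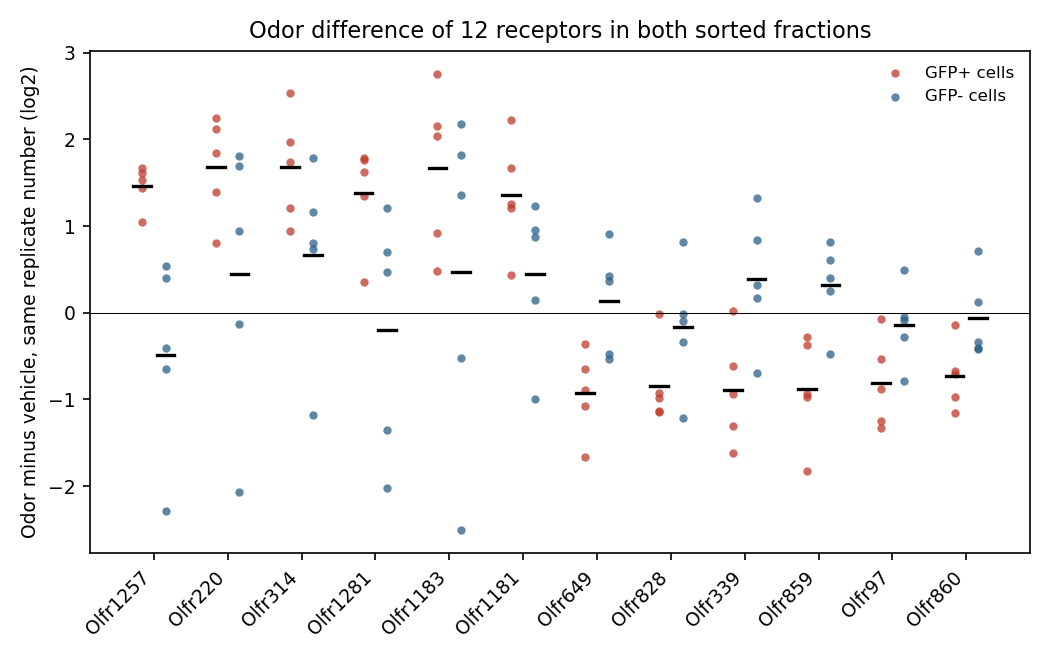
Odor minus vehicle in log2 signal (y axis) for 6 receptors with the smallest p above 0 and 6 below 0, each point being 1 replicate number and each bar the mean of 5, in GFP+ (red) and GFP- cells (blue). The GFP+ points of Olfr1257 lie between 1.05 and 1.67, and its GFP- points lie on both sides of 0.

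Genes that are known to follow activity in these neurons were described as a list of 12 measured genes, S100a5 among them. None passed the threshold, 10 of the 12 differences were positive, and the median was 0.32, where that of all probe sets was 0.03. With quantile normalization the median was 0.20, and without number 2 it was 0.17. Pcdh10 and Lrrc3b, 2 of the 12, were higher at an unadjusted p under 0.05, where 2.13% of all probe sets were. The list was chosen with earlier results of these data known. Pcdh10, a protocadherin that takes part in axon sorting, was at 8.72, 8.48, 9.19, 9.45 and 11.37 in odor pools and 8.77, 6.45, 8.38, 9.37 and 9.64 in vehicle pools. The difference was 0.92 (SE 0.30, 4 of 5 pairs, adjusted p = 0.993 by limma), and number 2, with a low vehicle pool, contributed the widest gap. Lrrc3b, which encodes a leucine-rich repeat protein, differed by 0.81 (SE 0.29, 4 of 5 pairs). In GFP- cells of the same pools Pcdh10 and Lrrc3b were also higher with odor, by 0.82 each, so the difference between fractions was 0.09 and -0.01. Kirrel2, an adhesion molecule that sorts axons by activity, was at 14.04 ± 1.45 in odor and 13.51 ± 1.69 in vehicle pools (SD, n = 5 each), and differed by 0.53 (SE 0.42), or 0.08 without number 2. Sema7a, a semaphorin, was the 1 gene of the list higher in every pair, by 0.39.

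**Figure D4:**
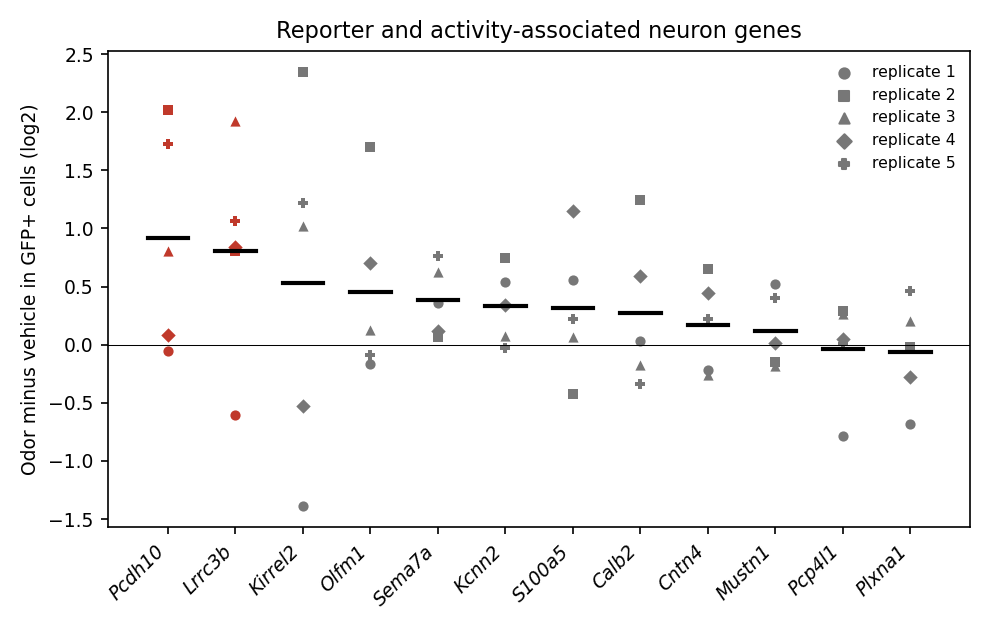
Odor minus vehicle in log2 signal (y axis) for each of 12 genes linked to neuronal activity in GFP+ cells, with a symbol for each replicate number, a bar for the mean of 5, and red for an unadjusted p under 0.05. Number 2 has the widest positive differences in Kirrel2, Pcdh10 and Olfm1, and S100a5 itself is negative in number 2.

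Of 7 genes known to be repressed by activity none had an unadjusted p under 0.05, and the median was 0.07, which turned to -0.05 without number 5 and -0.01 without number 4. Plxna3, a semaphorin receptor component, differed by 0.48, or 0.14 without number 2, and Epha5, an ephrin receptor, by -0.30. Among 20 guidance and glomerular sorting genes, which overlap both lists, 13 differences were positive with a median of 0.15. That median was 0.02 without number 2 and 0.05 with quantile normalization. Pcdh10, already counted in the activity list, was the 1 with an unadjusted p under 0.05. Of all probe sets 3.69% had one. Nrp2, a semaphorin receptor, was at 11.01 ± 0.54 and 10.56 ± 0.89 (SD, n = 5 each), and its difference of 0.45 was 0.08 without number 2.

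Immediate early genes are transcribed within minutes of stimulation. Of the 22 measured, 15 differences were positive and the median was 0.14, which turned to -0.03 without number 1 and was 0.06 without number 5. Dusp1, a phosphatase of MAP kinases, and Atf3, a stress-responsive transcription factor, were higher at an unadjusted p under 0.05. Of all probe sets 2.13% were higher at that level. Dusp1 was at 15.45, 14.69, 17.00, 16.42 and 16.73 in odor pools 1 to 5 and at 13.51, 13.92, 15.64, 16.45 and 16.22 in vehicle pools. The groups overlapped, the low vehicle pools being numbers 1 and 2, and the difference was 0.91 (SE 0.26, 4 of 5 pairs, adjusted p = 0.993 by limma). In GFP- cells Dusp1 ranged from 10.45 to 18.16 in vehicle pools. Atf3 was higher in each pair, by 0.44 (SE 0.18). Fos differed by 0.05, Egr1 by 0.15, Jun by 0.02 and Npas4, near background, by 0.31.

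The genes of the transduction cascade were close between groups. For all 15 measured the 95% confidence interval lay within a 2-fold difference, as it did for 94.4% of all probe sets. Gnal, the G protein alpha subunit of the pathway, was at 19.2 in odor and 19.0 in vehicle pools, and Adcy3, the adenylyl cyclase, at 18.25 ± 0.66 and 18.04 ± 0.70 (SD, n = 5 each). The highest signal on a GFP+ array was 18.49 to 19.86, so Gnal lay near the top of the range. Whether differences are narrowed there was not tested. The channel subunits Cnga2 and Cnga4 differed by 0.16 and 0.22. The list's median was 0.15, or 0.03 with quantile normalization and 0.07 without number 4. For the 15 measured genes that end the response, 5 of them near background, all intervals lay within 2-fold too. Bbs4, a cilia trafficking protein, had the largest difference, 0.42 (SE 0.24), which was 0.14 without number 2. Pde4a, a phosphodiesterase that degrades cAMP, differed by 0.30.

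Markers of mature sensory neurons had 14 of 16 positive differences and a median of 0.19, which was 0.07 with quantile normalization. Kcnmb3, a potassium channel subunit, had an unadjusted p under 0.05 and a difference of 0.66 (SE 0.27). It was at 12.34 to 14.96 in odor and 10.96 to 13.78 in vehicle pools, so the groups overlapped. The transcription factors Ebf1 and Ebf3 differed by 0.44 and 0.34, and Ebf1 by 0.10 without number 2, whose pair differed by 1.80. The list's median was 0.12 without number 2. Of 17 genes of immature neurons none had an unadjusted p under 0.05 and the median was 0.06, or 0.01 without number 3. Their members lay on both sides of 0, with Crmp1, a cytosolic phosphoprotein of growing axons, at 0.70 (SE 0.38), or 0.17 without number 2, and Gap43, a growth cone protein, at -0.33. Among 13 regulators of receptor choice, Smchd1, a chromatin protein that takes part in gene silencing, differed by -0.50 (SE 0.22) and Lhx2, a homeodomain factor needed for odorant receptor expression, by 0.55 (SE 0.25), or 0.25 without number 2. The median of this list was 0.16, 0.00 with quantile normalization and 0.01 without number 4.

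Genes that respond through the aryl hydrocarbon receptor or to oxidants did not pass the threshold. Whether the artificial smoke odor held compounds that act on these genes was not tested. For all 17 measured the 95% confidence interval lay within a 2-fold difference, as it did for 94.4% of all probe sets. Of these 17 genes 7 were near background, and the median was 0.07, or -0.02 without number 2. Cyp1a1 and Cyp1b1, the classic targets of the receptor, were near background and differed by 0.18 and 0.10. Nqo1, a quinone reductase that these neurons also express by epithelial zone, was at 15.1 in odor and 15.2 in vehicle pools. Srxn1, a sulfiredoxin, had an unadjusted p under 0.05 with 0.45 (SE 0.20), and Ahr itself was higher in 5 of 5 pairs by 0.38 (SE 0.19). All 19 inflammation and interferon genes had intervals within 2-fold and a median of 0.06, and 14 of them were near background.

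Among markers of other cells, the macrophage and monocyte list had the lowest median, -0.27, where that of all probe sets was 0.03. Of its 16 differences 12 were negative, and 13 of the 16 genes were near background. Its median was negative in each of the 5 pairs, from -0.13 to -0.47. Ly6c2 and Adgre1, surface proteins of monocytes and macrophages, had an unadjusted p under 0.05 with -0.59 and -0.51, or -0.31 and -0.34 without number 2, and both were near background. Of all probe sets 1.56% were lower at that level. Lyz2, the lysozyme of these cells, was at 7.8 in odor and 8.2 in vehicle pools. The part of these cells in the receptor differences was not tested. Neutrophil genes had a median of 0.09, sustentacular genes -0.03 and microvillar genes -0.16 (-0.00 without number 2), with no member at an unadjusted p under 0.05. In Bowman gland genes the median was -0.00. The neutrophil, sustentacular and Bowman gland medians each took either sign as 1 number was left out. Obp2a, an odorant-binding protein of nasal glands, was at 12.14, 10.91, 7.78, 8.65 and 8.60 in odor pools and 7.25, 7.17, 7.68, 10.46 and 8.79 in vehicle pools. Its difference of 1.35 (SE 0.76) came from the odor pools of numbers 1 and 2, and was 0.46 without number 1.

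**Figure D5:**
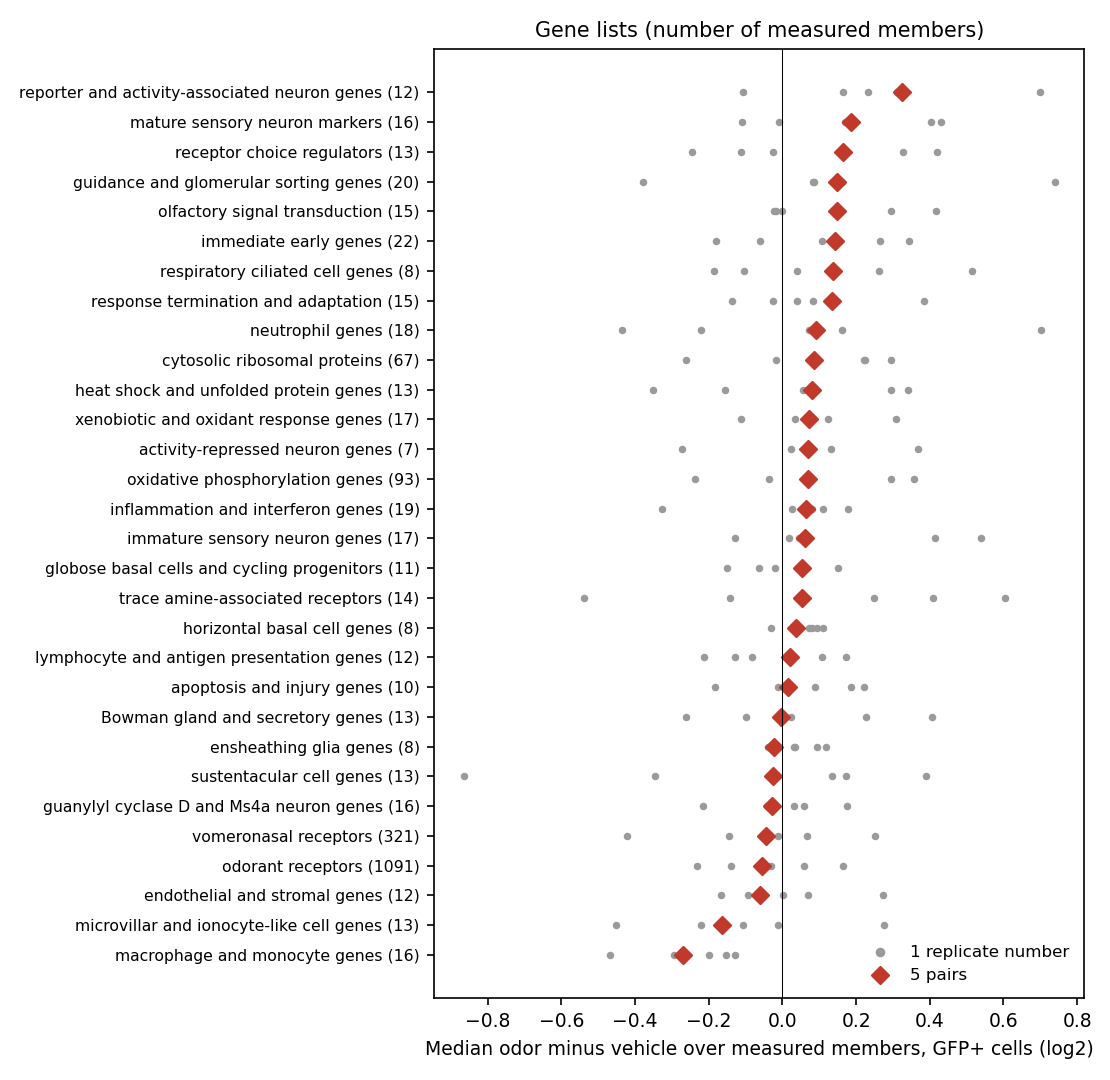
Median odor minus vehicle in log2 signal (x axis) over the measured members of each gene list in GFP+ cells, with grey points for each replicate number and red diamonds for the median of the 5-pair differences. The activity list is highest at 0.32 and the macrophage list lowest at -0.27, and for most lists the grey points lie on both sides of 0.

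Outside receptors, few genes were more than 2-fold apart. Obp2a, Cd44 and Wdr54 were higher. Cd44, an adhesion receptor, was at 4.39 to 7.63 in odor pools and 3.85 to 6.59 in vehicle pools, higher in 5 of 5 pairs by 1.02 (SE 0.30, adjusted p = 0.993 by limma), or 0.64 without number 2. Wdr54 differed by 1.02 (SE 0.41), with vehicle pool 2 at 11.95 and the other vehicle pools from 14.29 to 15.62, and by 0.45 without number 2. Of the 4 probe sets outside receptors that were more than 2-fold lower, 2 had a gene name. These were Fam183b (-1.03, or -0.58 without number 4) and Esp34 (-1.06, or -0.65 without number 2), a gene of the exocrine gland-secreted peptide family that was near background. Cd59a, an inhibitor of complement attack, was just under 2-fold higher at 0.97 (SE 0.22), higher in each pair and, by 0.70, in GFP- cells as well.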

How the data were processed

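RNA of 20 sorted samples, 10 of them GFP+, was hybridised as biotinylated cRNA, made from 50 to 100 ng of total RNA, to 1 Clariom S mouse array each, per the labels' protocols and design text. The authors processed the arrays with Affymetrix Expression Console, per the submitters' processing notes. Neither its version nor its method of normalization is stated there. Judged by their range, the deposited values are log2 signals, and they entered the fits as they were. Of 28846 rows, 6640 control rows were left out and 22206 gene probe sets kept. The probe annotation gave 1 symbol for 19572, several for 0 and none for 2634. All 19572 were matched by Entrez ID to the RefSeq table of GRCm38.p6, which changed 0 symbols and was used for names and gene order only.

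Odor and vehicle were compared with limma 3.58.1 in R 4.3.3 (lmFit, eBayes), with Benjamini-Hochberg adjustment over all gene probe sets at 0.05 and 95% confidence intervals. The code was tested on simulated data. Replicate number was a block. As a check of pairing, the deviation of each GFP+ sample from its group mean was correlated with that of its same-numbered partner. The values were 0.25, 0.52, 0.35, 0.16 and 0.86 (numbers 1 to 5), above the limit of 0.1, and without number 5 at -0.05, 0.36, 0.37 and 0.25. The labels do not say what the numbers share. The difference between fractions was tested on the 5 differences of differences. No 2 GFP+ arrays shared more than 0.00901% of their values.

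Named genes were S100a5 and Omp, the 10 probe sets with 1 symbol and the smallest p, the 6 receptors of smallest p in each direction, up to 4 members of each of 33 gene lists by size of difference, and the sex-linked genes. Others named here, such as receptors beyond 2-fold, neighbouring receptors and well-known list members, were chosen after their values were seen. For lists 1 probe set per gene was used. The members and lists were chosen with earlier results of these data known. Alternatives were other treatments of the block, quantile normalization, median centring, a filter on the dimmest 25%, an intensity trend, robust moderation, array weights, all 20 samples in the fit, and leaving out each number.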

Additional observations from a re-analysis of the deposited data

Results flagged for a closer look

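A signal was set apart where the highest or the lowest of the 5 pools of a group lay far from the other 4 by Dixon's test at 95%. Of 190 groups looked at, over 95 genes, 21 met this, where chance gives about 1 in 20, and 17 of the 21 were pools of replicate 5, whose arrays differed from the rest in median signal.

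Among receptors, Olfr1257 was lowest in odor pool 1 (13.04), Olfr220 highest in vehicle pool 5 (12.81) and Olfr649 highest in odor pool 5 (8.23). Olfr698 (11.56) and Olfr1153 (11.77) were highest in odor pool 5. Olfr339 (8.30) and Olfr1099 (9.15) were lowest in vehicle pool 4.

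Among genes of sensory neurons, Omp (18.29) and Adcy3 (17.10) were lowest in odor pool 5, and Stmn2 was highest in vehicle pool 5 (14.85). Atf3 (10.20) and Junb (8.24) were highest in odor pool 5, and Junb (7.34) was also highest in vehicle pool 5. Pcna, a replication clamp, was highest in both pools of number 5 (13.99 in odor, 14.25 in vehicle), as was the chaperonin Hspd1 (13.18 and 13.82). Hspa1b, an inducible heat shock protein, was lowest in odor pool 5 (7.69). Srxn1 (9.95) and Rps21 (11.18) were highest in vehicle pool 5.

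Uty, a gene of the Y chromosome, was lowest in odor pool 3 (3.35).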

How the results depend on the processing

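With the replicate number as a block no probe set passed, and none passed with quantile normalization, median centring, the dim filter, an intensity trend, robust moderation, all 20 samples or a term for the arrays of replicate 5. No replicate block gave 0 probe sets and 0 receptors, and an S100a5 difference of 0.31 as with it. Array weights gave 4 probe sets, all receptors, the random block 1 receptor, and moderation and adjustment over receptors alone 3 receptors. Leaving out 1 number gave 0 to 2 probe sets and 0 to 2 receptors, the 2 being Olfr1257 and Olfr1281 without number 2. Members of gene lists other than receptors were called 0 times, and the difference between fractions gave 0 calls, under every setting run. Probe sets with an unadjusted p under 0.05 numbered 61 without the block, 294 with all 20 samples, 476 with the term for replicate 5 and 1047 with array weights, against 820. The 16 probe sets more than 2-fold higher became 51 without number 1, 33 without 3, 29 without 4, 27 without 5 and 9 without 2, of which 23, 19, 17, 14 and 9 were receptors. Of 1398 results for single genes under alternatives 1386 kept their direction and their side of the threshold, 7 passed it and 5 changed sign. Over the fits that left out a number these 5 ranged from -0.026 to 0.74 (Hspa1b), -0.043 to 0.26 (Kdm5d), -0.064 to 0.56 (Ngp), -0.034 to 0.72 (Nr4a1) and -0.030 to 0.56 (Uty), and the cause was not tested. Signal near background limits what can be said of 49.5% of probe sets.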

Other observations

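The Y-linked genes Eif2s3y, Uty and Kdm5d divided the pools by number. In GFP+ cells they were at 3.07 to 3.92 in both pools of number 3 and at 6.65 to 11.77 in the other 8 pools. In GFP- cells of the same pools they were at 2.61 to 4.25 in number 3 and at 5.32 to 11.91 in the others.

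Cytosolic ribosomal proteins and oxidative phosphorylation genes had medians of 0.09 and 0.07. Of 67 ribosomal protein genes 2 had an unadjusted p under 0.05, Rps14 (0.66, SE 0.27) and Rps21 (0.57, SE 0.23), both higher in odor pools. Of all probe sets 2.13% were higher and 1.56% lower at that level, so the ribosomal count is near the share of all. Of 93 oxidative phosphorylation genes 5 were higher and 1 lower at that level, with Ndufs7, a subunit of complex I, at 0.83 (SE 0.33, and 0.45 without number 2) and Atp5d, a subunit of ATP synthase, at 0.78 (SE 0.32). Of 321 vomeronasal receptors, which detect pheromones in another organ, 312 were near background. At an unadjusted p under 0.05, 3 of them were higher and 17 lower, where 2.13% and 1.56% of all probe sets were, with Vmn1r220 at -0.93 and Vmn1r196 at 0.76. Medians of the remaining lists were 0.08 for 13 heat shock genes, 0.14 for 8 genes of respiratory ciliated cells, 0.05 for 11 of globose basal cells, 0.04 for 8 of horizontal basal cells, 0.02 for 12 of lymphocytes, 0.02 for 4 erythroid genes, 0.01 for 10 apoptosis genes, 0.10 for 3 formyl peptide receptors, -0.02 for 8 of ensheathing glia, -0.06 for 12 endothelial and stromal genes and -0.03 for 16 genes of guanylyl cyclase D and Ms4a neurons. Leaving out a number turned the sign of the medians of heat shock, globose basal, lymphocyte, erythroid, apoptosis, ensheathing glia, endothelial and stromal, guanylyl cyclase D and Ms4a, and oxidative phosphorylation genes. Among guanylyl cyclase D and Ms4a genes Ms4a3 differed by 0.46 and Ms4a4b by -0.54, both near background.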
